A study of Homo sapiens with 18 samples.

Results

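The 7 genes described here form the core of NODAL signalling in early human cells: the ligands NODAL and GDF3, the coreceptor CRIPTO (formerly TDGF1), the secreted inhibitors LEFTY1, LEFTY2 and CER1, and the transcription factor FOXH1. They were chosen by gene symbol in the annotation of the array, where each has exactly 1 probe set and none of the 7 probe sets is shared with another gene. They are 7 of the 18417 genes that have a probe set with a single symbol. RNA was measured in H1, a widely used human embryonic stem cell line, on 18 Affymetrix Human Gene 1.0 ST arrays in 6 groups of 3. Embryoid bodies, which are aggregates that differentiate in suspension, were sampled at day 6 after transduction of the cells with a lentivirus carrying an shRNA against KBTBD8, after transduction with a control shRNA lentivirus, or without transduction. Pluripotent H1 cells, grown without feeder cells, were sampled with the same 3 treatments. KBTBD8 selects substrates for the ubiquitin ligase CUL3. All samples come from 1 cell line, and the labels do not say how many shRNA sequences were used against KBTBD8. The design text calls the 3 samples of a group independent without saying whether they came from separate cultures, so p-values measure the spread between these samples, which may be technical.

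NODAL is a ligand of the TGF-beta family that binds activin receptors of types I and II together with CRIPTO, a membrane-anchored EGF-CFC protein. The activated type I receptor phosphorylates SMAD2 and SMAD3, which join SMAD4 and enter the nucleus, where FOXH1 brings the complex to target genes. NODAL, LEFTY1 and LEFTY2 are themselves known targets, so that the pathway feeds its own ligand and its own inhibitors. In human embryonic stem cells, activin and NODAL signals are known to sustain the pluripotent state and, when stronger, to start mesendoderm, while their inhibition favours neuroectoderm.

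The arrays labelled KBTBD8 shRNA replicate 2 were read apart in both states. Over all tested probe sets, the one labelled embryoid body correlated with the mean of the pluripotent KBTBD8 shRNA arrays at r = 0.993, against 0.923 with its own group. The one labelled pluripotent correlated with the embryoid body KBTBD8 shRNA arrays at r = 0.989, against 0.915 with its own group, while the other 16 arrays each lay nearest to their own group. Both KBTBD8 shRNA groups therefore hold 2 arrays below, the other 4 groups hold 3, and values from all 18 arrays as labelled are given where a call depended on this. KBTBD8 itself lay at 4.66 to 4.86 in embryoid bodies with KBTBD8 shRNA, at 4.43 to 5.04 with control shRNA and at 4.07 to 5.06 without transduction. In pluripotent cells it lay at 4.96 to 5.13 with KBTBD8 shRNA, at 6.39 to 7.09 with control shRNA and at 6.03 to 6.50 without transduction. KBTBD8 shRNA differed from control shRNA in pluripotent cells by -1.79 ± 0.26 (adjusted p = 3.7e-04, limma), so the targeted gene was lower there. In embryoid bodies it lay at percentiles 20.4 to 36.1 of the arrays in every treatment, controls included, where a knockdown may not be measurable. As a check of the state labels, the mean log2 intensity of 10 pluripotency markers was 8.28 to 9.44 in embryoid bodies and 9.86 to 10.2 in pluripotent cells, and that of 8 neural plate markers was 7.56 to 8.97 in embryoid bodies and 5.67 to 5.93 in pluripotent cells. POU5F1 and NANOG share their probe sets with other genes and were not used.

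Most of the NODAL pathway genes fell during differentiation in all 3 treatments, but not every member in each. A gene is called higher or lower here when limma, fitted over 16334 probe sets, gave it a Benjamini-Hochberg adjusted p under 0.05, and all levels and differences are on the log2 intensity scale. Without transduction 6 of the 7 genes were lower in embryoid bodies, where 25.7% of all probe sets were called lower, and CER1 was the exception. With control shRNA 6 of 7 were lower, against 24.2% of all probe sets, and with KBTBD8 shRNA 6 of 7 were lower, against 20.2%. In both of these FOXH1 was the exception. The median log2 difference of the 7 genes was -1.005 with KBTBD8 shRNA, -1.04 with control shRNA and -0.90 without transduction, against 0.01, -0.01 and -0.04 over all probe sets tested. On all 18 arrays as labelled, none of the 7 was called lower with KBTBD8 shRNA, where limma called 0% of all probe sets and 870 had an unadjusted p under 0.05. On those arrays 5 were lower with control shRNA and 5 without transduction, where 33.3% and 37.6% of all probe sets were called in either direction. In bulk RNA, fewer cells that express a gene and less of its RNA per cell cannot be told apart. All 7 genes passed the filter on low values (above the 40th percentile of an array on at least 3 arrays), but NODAL, GDF3 and CER1 passed it through pluripotent arrays alone, since none of the 8 embryoid body arrays had them above that percentile. CRIPTO was above it on 4 of the 8, none of them untransduced. The files used here give no detection call, so whether such values lie above background was not tested.

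**Figure D1:**
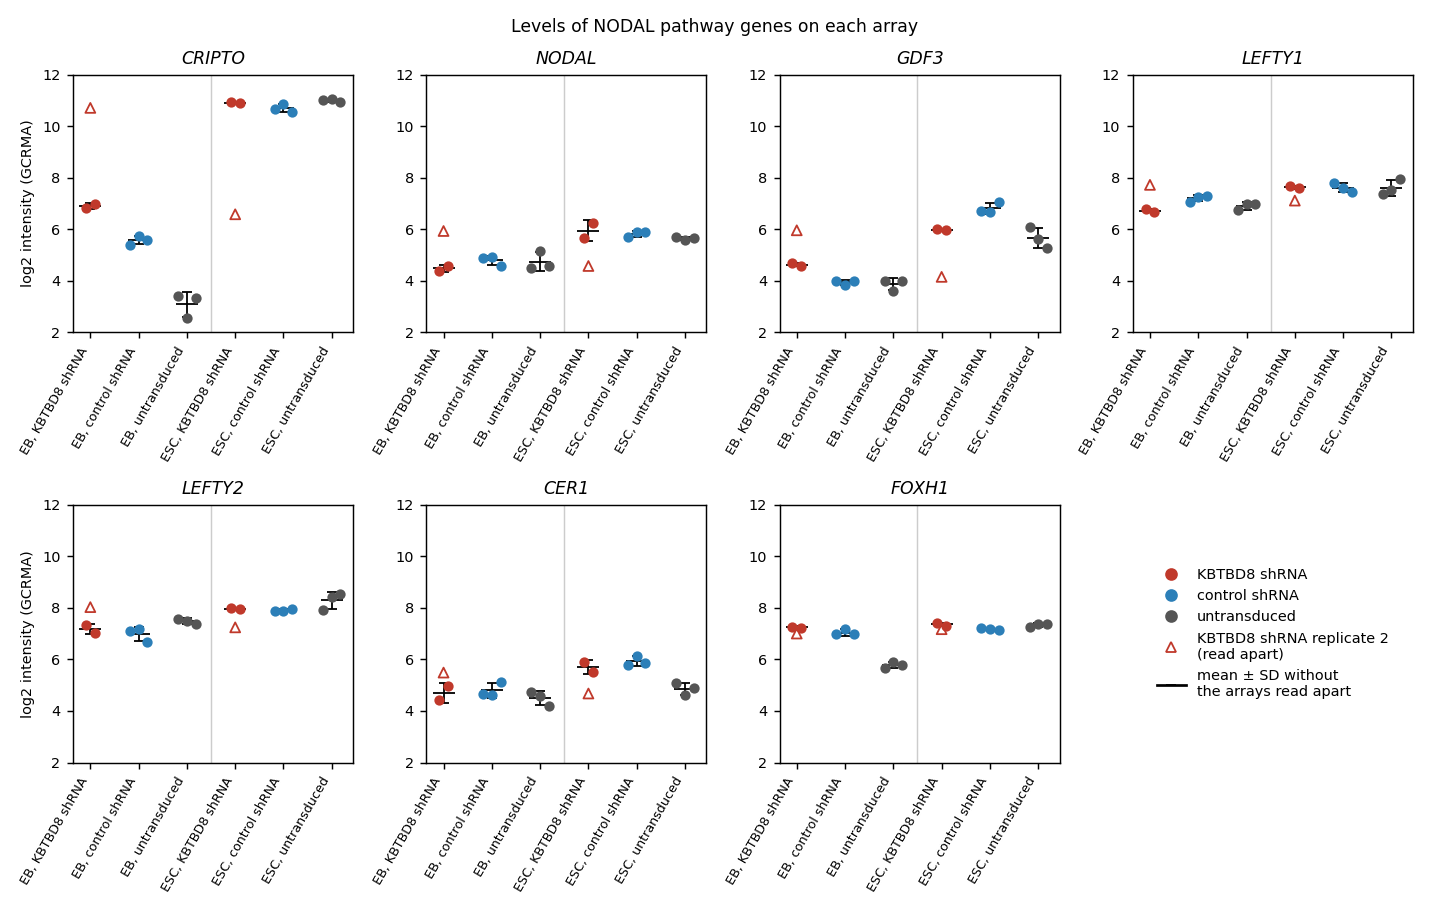
Log2 intensity of the 7 NODAL pathway genes on each of the 18 arrays, by state (EB, embryoid body; ESC, pluripotent cell) and treatment, with the mean ± SD without the 2 arrays read apart (open triangles). On the other 16 arrays CRIPTO spans the widest range, with embryoid bodies at 2.53 to 6.99 and pluripotent cells at 10.56 to 11.05, and FOXH1 stands low only in untransduced embryoid bodies.

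The 7 genes placed the 2 arrays read apart with the other state as well. On the array labelled embryoid body the log2 intensity was 10.71 for CRIPTO, 5.93 for NODAL, 5.96 for GDF3, 7.72 for LEFTY1, 8.03 for LEFTY2, 5.49 for CER1 and 7.01 for FOXH1. On the array labelled pluripotent it was 6.58 for CRIPTO, 4.57 for NODAL, 4.15 for GDF3, 7.11 for LEFTY1, 7.25 for LEFTY2, 4.68 for CER1 and 7.17 for FOXH1. The first array was nearer to the mean of the pluripotent KBTBD8 shRNA arrays for 6 of the 7 genes, all but FOXH1, and the second was nearer to the mean of the embryoid bodies for 7 of 7.

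CRIPTO, without which NODAL cannot signal through its receptors in most settings, showed the largest change of the 7 genes. In embryoid bodies its log2 intensity was 6.83 and 6.99 with KBTBD8 shRNA, 5.40, 5.72 and 5.57 with control shRNA, and 3.41, 2.53 and 3.32 without transduction. In pluripotent cells it was 10.93 and 10.88 with KBTBD8 shRNA, 10.67, 10.85 and 10.56 with control shRNA, and 11.01, 11.05 and 10.93 without transduction. The treatments did not overlap in either state. The means of neighbouring groups lay 0.09 and 0.21 apart in pluripotent cells, and 1.35 and 2.48 apart in embryoid bodies. Among embryoid bodies CRIPTO was highest with KBTBD8 shRNA and lowest without transduction. During differentiation it fell by 3.99 ± 0.21 (SE, adjusted p = 9.6e-10, limma) with KBTBD8 shRNA, fell by 5.13 ± 0.17 (adjusted p = 5.7e-12) with control shRNA and fell by 7.91 ± 0.17 (adjusted p = 2.7e-14) without transduction. Untransduced embryoid bodies had CRIPTO at percentiles 2.27 to 10.8 of their arrays, under the 40th percentile of the filter, so no fold is given for differences that rest on them. On the 18 arrays as labelled the first of these was -1.28 ± 1.00 and was not called.

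The fall of CRIPTO also differed between treatments when the difference itself was tested. It was smaller with KBTBD8 shRNA than with control shRNA by 1.14 ± 0.27 (adjusted p = 0.015, limma), where 3.44% of all probe sets were called in that direction. It was smaller with control shRNA than without transduction by 2.78 ± 0.24 (adjusted p = 1e-06), where 7.85% were. The second test includes the untransduced embryoid bodies with CRIPTO under the filter's percentile. Both tests use the control shRNA arrays and are not independent of each other. The first call rested on few arrays. Its adjusted p was 0.062 without replicate 3 of the pluripotent KBTBD8 shRNA cells, 0.059 without replicate 3 of the embryoid bodies with KBTBD8 shRNA, and 0.15 on all 18 arrays, where 3.37% of all probe sets were called in either direction.

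CRIPTO has a near-identical processed copy on the X chromosome, CRIPTO3, which has its own probe set on the array. Since hybridization can cross between such copies, the level of either is uncertain to that extent, and this was not tested. CRIPTO3 averaged 3.98 in embryoid bodies with KBTBD8 shRNA, 4.40 with control shRNA and 4.32 without transduction, and 6.12, 6.70 and 7.21 in pluripotent cells with the same treatments. It was lower in embryoid bodies in all 3 treatments. Its embryoid body levels lay at percentiles 16.3 to 28.4, under the filter's percentile, so treatments were not compared there.

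GDF3, a ligand related to NODAL that also acts through CRIPTO and is known as a marker of pluripotent cells, fell most with control shRNA. Its log2 intensity in embryoid bodies was 4.67 and 4.58 with KBTBD8 shRNA, 3.98, 3.83 and 3.99 with control shRNA, and 3.99, 3.59 and 4.003 without transduction. In pluripotent cells it was 6.01 and 5.95 with KBTBD8 shRNA, 6.69, 6.67 and 7.06 with control shRNA, and 6.08, 5.61 and 5.28 without transduction. Control shRNA cells thus held the highest GDF3 while pluripotent, and the embryoid bodies with KBTBD8 shRNA stood above the other embryoid bodies. During differentiation GDF3 fell by 1.35 ± 0.20 (adjusted p = 8e-05, limma) with KBTBD8 shRNA, by 2.87 ± 0.17 (adjusted p = 1.7e-09) with control shRNA and fell by 1.79 ± 0.17 (adjusted p = 2.7e-07) without transduction. The fall with KBTBD8 shRNA was smaller than with control shRNA by 1.52 ± 0.26 (adjusted p = 0.002), a call that was also made on all 18 arrays (2.57 ± 0.60, adjusted p = 0.029). That fit includes the 2 arrays read apart, with which the difference during differentiation with KBTBD8 shRNA was -0.30 ± 0.42. It is therefore no separate check of the call. The fall with control shRNA was larger than without transduction, with a difference of -1.08 ± 0.24 (adjusted p = 0.0052) where 7.9% of all probe sets were called in that direction, but this was not called on 18 arrays (adjusted p = 0.40), where 4.75% were called in either direction.

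NODAL, the ligand that names the pathway, separated the states in each treatment. In embryoid bodies it had log2 intensities of 4.39 and 4.57 with KBTBD8 shRNA, 4.88, 4.91 and 4.58 with control shRNA, and 4.51, 5.15 and 4.56 without transduction. Its values in pluripotent cells were 5.66 and 6.22 with KBTBD8 shRNA, 5.70, 5.90 and 5.89 with control shRNA, and 5.68, 5.57 and 5.68 without transduction. Every pluripotent array lay above every embryoid body array, and within each state the treatments overlapped or lay close. The separation is only a description, since NODAL passed the filter through pluripotent arrays alone. In embryoid bodies NODAL lay at percentiles 22.5 to 37.7, under the filter's percentile. Its difference during differentiation was -1.46 ± 0.20 (adjusted p = 3.2e-05, limma) with KBTBD8 shRNA, -1.04 ± 0.16 (adjusted p = 7.7e-05) with control shRNA and -0.90 ± 0.16 (adjusted p = 2.5e-04) without transduction. On 18 arrays the untransduced fall was not called (adjusted p = 0.073). No treatment contrast was called for NODAL, and neither was a difference between its falls (adjusted p = 0.35 for KBTBD8 shRNA against control shRNA and 0.76 for control shRNA against no transduction).

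The start regions of the 2 ligands, of CRIPTO and of CER1 are shown because FOXH1 and SMAD proteins act through short DNA words, and these are the 4 genes with a matched window. Each window holds 250 bases before and 50 bases after a transcription start, from RefSeq on GRCh38.p14. LEFTY1, LEFTY2 and FOXH1 are named only. Capitals mark matches on either strand to TGTNNATT, a core of the FOXH1 motif found in 11.03% of 35116 RefSeq promoters of this length, or to CAGAC, the SMAD word found in 45.26% of them. The windows lie at chr3:46574285-46574584 and chr3:46577538-46577837 on the plus strand for the 2 starts of CRIPTO, and on the minus strand at chr12:7695726-7696025 for GDF3, chr10:70441632-70441931 for NODAL and chr9:14722684-14722983 for CER1.
CRIPTO, first start: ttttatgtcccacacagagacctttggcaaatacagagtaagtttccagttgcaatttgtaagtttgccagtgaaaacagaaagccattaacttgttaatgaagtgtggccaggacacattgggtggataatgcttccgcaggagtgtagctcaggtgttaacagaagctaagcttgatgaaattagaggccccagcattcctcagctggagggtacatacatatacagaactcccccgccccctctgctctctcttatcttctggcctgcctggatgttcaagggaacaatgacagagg
CRIPTO, second start: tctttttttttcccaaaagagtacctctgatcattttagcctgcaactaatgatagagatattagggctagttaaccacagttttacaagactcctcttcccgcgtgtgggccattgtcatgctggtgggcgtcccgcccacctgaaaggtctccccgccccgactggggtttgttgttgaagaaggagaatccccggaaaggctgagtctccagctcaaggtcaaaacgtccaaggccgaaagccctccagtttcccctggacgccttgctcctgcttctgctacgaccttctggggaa
GDF3: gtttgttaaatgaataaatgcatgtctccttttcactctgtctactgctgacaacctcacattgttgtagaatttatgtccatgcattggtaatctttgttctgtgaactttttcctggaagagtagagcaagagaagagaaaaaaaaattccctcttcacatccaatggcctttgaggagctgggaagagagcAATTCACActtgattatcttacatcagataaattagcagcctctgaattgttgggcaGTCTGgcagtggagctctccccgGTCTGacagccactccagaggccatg
NODAL: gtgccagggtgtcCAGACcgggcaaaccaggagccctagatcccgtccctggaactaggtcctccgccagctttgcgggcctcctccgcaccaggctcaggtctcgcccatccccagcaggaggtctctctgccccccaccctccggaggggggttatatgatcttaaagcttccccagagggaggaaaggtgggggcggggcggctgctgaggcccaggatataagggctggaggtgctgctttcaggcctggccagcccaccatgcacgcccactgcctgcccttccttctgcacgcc
CER1: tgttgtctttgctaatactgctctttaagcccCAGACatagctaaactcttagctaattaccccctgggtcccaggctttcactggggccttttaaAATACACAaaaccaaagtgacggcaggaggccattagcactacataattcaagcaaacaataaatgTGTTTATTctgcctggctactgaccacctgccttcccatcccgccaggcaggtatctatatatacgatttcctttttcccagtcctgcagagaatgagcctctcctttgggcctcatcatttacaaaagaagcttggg
In these windows GDF3 holds 1 match to the FOXH1 word, 56 bases before its start, and 2 matches to the SMAD word after its start. CER1 holds 2 matches to the FOXH1 word and 1 to the SMAD word, NODAL holds 1 match to the SMAD word, and neither CRIPTO window holds a match to either. The matches are descriptions of these letters and do not show binding.

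Among the inhibitors, LEFTY1 and LEFTY2, secreted proteins that block NODAL and its coreceptor, both fell in every treatment. They are close neighbours in the genome with near-identical coding sequences, so probes for one may read the other, which was not tested. LEFTY1 had log2 intensities of 6.77 and 6.67 in embryoid bodies with KBTBD8 shRNA, 7.07, 7.24 and 7.30 with control shRNA, and 6.74, 6.98 and 6.97 without transduction. Its values in pluripotent cells were 7.67 and 7.59 with KBTBD8 shRNA, 7.78, 7.61 and 7.44 with control shRNA, and 7.37, 7.50 and 7.96 without transduction. The pluripotent groups overlapped fully, and the embryoid bodies with control shRNA lay highest of the embryoid bodies. LEFTY1 fell by 0.91 ± 0.16 (adjusted p = 3.8e-04, limma) with KBTBD8 shRNA, by 0.40 ± 0.13 (adjusted p = 0.02) with control shRNA and by 0.71 ± 0.13 (adjusted p = 3.4e-04) without transduction. The fall with control shRNA was not called on 18 arrays (adjusted p = 0.20). The difference between the falls with KBTBD8 shRNA and with control shRNA was -0.51 ± 0.21 and was not called (adjusted p = 0.16).

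LEFTY2 had log2 intensities of 7.33 and 7.04 in embryoid bodies with KBTBD8 shRNA, 7.09, 7.20 and 6.67 with control shRNA, and 7.58, 7.50 and 7.37 without transduction. Its values in pluripotent cells were 7.98 and 7.96 with KBTBD8 shRNA, 7.90, 7.88 and 7.95 with control shRNA, and 7.93, 8.41 and 8.55 without transduction. All pluripotent arrays lay above all embryoid body arrays, and the untransduced embryoid bodies lay above both transduced kinds. The differences between states were -0.79 ± 0.18 (adjusted p = 0.0031, limma) with KBTBD8 shRNA, -0.92 ± 0.15 (adjusted p = 1.1e-04) with control shRNA and -0.81 ± 0.15 (adjusted p = 3e-04) without transduction. The interaction terms were 0.13 ± 0.24 for KBTBD8 shRNA against control shRNA and -0.10 ± 0.21 for control shRNA against no transduction, neither called.

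CER1, a secreted antagonist of NODAL, BMP and WNT ligands made by anterior endoderm in the embryo, behaved differently from the LEFTY genes in transduced pluripotent cells. Its log2 intensity in embryoid bodies was 4.43 and 4.96 with KBTBD8 shRNA, 4.66, 4.61 and 5.12 with control shRNA, and 4.75, 4.56 and 4.19 without transduction. In pluripotent cells it was 5.89 and 5.51 with KBTBD8 shRNA, 5.79, 6.15 and 5.87 with control shRNA, and 5.07, 4.61 and 4.89 without transduction. Only the 2 transduced pluripotent groups stood apart, since untransduced pluripotent cells overlapped with embryoid bodies. Without transduction CER1 lay at percentiles 27.8 to 36.9 in pluripotent cells and 22.4 to 30.1 in embryoid bodies. Both ranges are under the filter's percentile, where a fall may not be measurable. CER1 fell by 1.00 ± 0.23 (adjusted p = 0.0024, limma) with KBTBD8 shRNA and by 1.14 ± 0.19 (adjusted p = 1e-04) with control shRNA. Without transduction its difference was -0.35 ± 0.19 (adjusted p = 0.12). The test of control shRNA against no transduction gave a difference between these falls of -0.79 ± 0.26 and an adjusted p of 0.054, so the exception seen without transduction was not itself called.

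FOXH1, the DNA-binding partner of the SMAD complex, was low in 1 combination of state and treatment. In embryoid bodies its log2 intensity was 7.27 and 7.21 with KBTBD8 shRNA, 6.98, 7.18 and 6.97 with control shRNA, and 5.68, 5.90 and 5.77 without transduction. Its values in pluripotent cells were 7.41 and 7.31 with KBTBD8 shRNA, 7.21, 7.19 and 7.15 with control shRNA, and 7.24, 7.39 and 7.37 without transduction. Only the untransduced embryoid bodies stood apart, more than 1 log2 unit below every other array. FOXH1 fell by 1.55 ± 0.08 (adjusted p = 3.9e-10, limma) without transduction, whereas its differences were -0.12 ± 0.10 with KBTBD8 shRNA (adjusted p = 0.41) and -0.14 ± 0.08 with control shRNA (adjusted p = 0.20). The test of control shRNA against no transduction gave a difference of 1.42 ± 0.12 between the falls (adjusted p = 6.6e-07), which was also called on all 18 arrays (adjusted p = 1.7e-05). For KBTBD8 shRNA against control shRNA that difference was 0.02 ± 0.13 (adjusted p = 0.95).

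In embryoid bodies CRIPTO and GDF3 were higher with KBTBD8 shRNA than with control shRNA. CRIPTO was higher by 1.35 ± 0.19 (2.54-fold, adjusted p = 3.1e-04, limma) and GDF3 by 0.69 ± 0.19 (adjusted p = 0.041), 2 of 7 genes where 2.55% of all probe sets were called higher. GDF3 lay under the filter's 40th percentile on every embryoid body array, at percentiles 26.4 to 26.5 with KBTBD8 shRNA and 15.5 to 17.7 with control shRNA, and was tested because of its pluripotent arrays. The other 5 were not called, and LEFTY1 came nearest with -0.48 ± 0.15 (adjusted p = 0.081). The GDF3 call was lost on leaving out any 1 of the 5 arrays compared, and neither gene was called on all 18 arrays as labelled (adjusted p = 0.25 for CRIPTO and 0.23 for GDF3), where 2.27% of all probe sets were called in either direction and the SD of CRIPTO over the 3 embryoid bodies labelled KBTBD8 shRNA was 2.19. The difference of KBTBD8 itself, low in all embryoid bodies, was 0.01 ± 0.26 (adjusted p = 0.998).

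In pluripotent cells with KBTBD8 shRNA, GDF3 was lower than with control shRNA by 0.83 ± 0.19 (1.78-fold, adjusted p = 0.0085, limma), and it was the 1 gene of 7 called, where 5.29% of all probe sets were called lower. The call was lost without replicate 3 of the KBTBD8 shRNA cells (adjusted p = 0.081) and on all 18 arrays (-1.44 ± 0.42, adjusted p = 0.063), where 5.03% were called in either direction. The other 6 genes differed by -0.24 to 0.21 and were not called.

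Control shRNA cells also differed from untransduced cells in the pathway. In embryoid bodies with control shRNA, CRIPTO was higher than without transduction by 2.48 ± 0.17 (adjusted p = 2.6e-08, limma) and FOXH1 by 1.26 ± 0.08 (2.40-fold, adjusted p = 1.5e-08), 2 of 7 genes where 24.3% of all probe sets were called higher. The untransduced level of CRIPTO lay under the filter's percentile, so its difference is given without a fold. LEFTY2 was lower by 0.49 ± 0.15 (1.41-fold, adjusted p = 0.015), 1 of 7 where 19.7% were called lower. In pluripotent cells with control shRNA, GDF3 was higher than without transduction by 1.16 ± 0.17 (2.23-fold, adjusted p = 2.5e-04) and CER1, whose untransduced level lay under the filter's percentile, by 1.08 ± 0.19 (adjusted p = 7.7e-04), 2 of 7 where 16.5% were called higher. On all 18 arrays FOXH1 was called in embryoid bodies and CER1 in pluripotent cells, and CRIPTO (adjusted p = 0.079), LEFTY2 (adjusted p = 0.15) and GDF3 (adjusted p = 0.087) were not. There 26.6% of all probe sets were called in embryoid bodies and 11.8% in pluripotent cells. The share of calls that were higher depended on scaling: it was 55.2% in embryoid bodies and 57.4% in pluripotent cells as deposited, and 27.4% and 30.7% after subtracting each array's median, under which all of these 5 calls were made again.

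**Figure D2:**
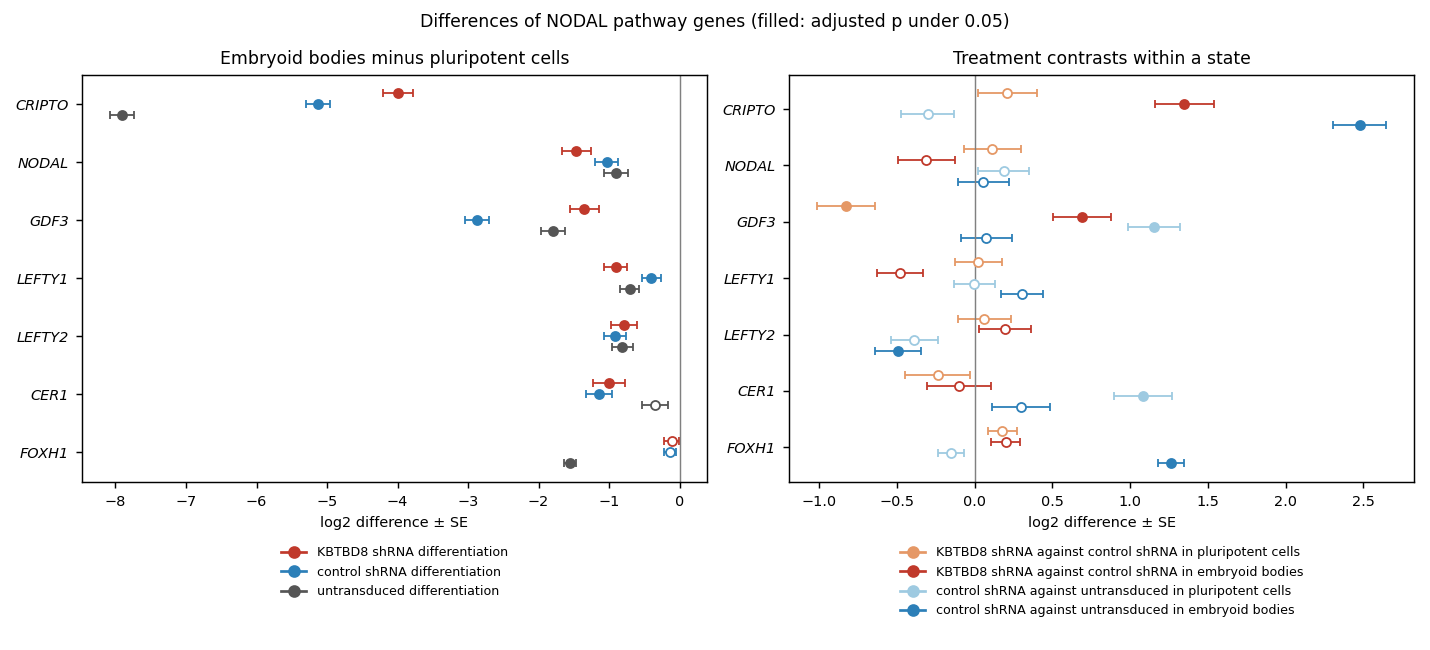
Log2 differences ± SE of the 7 NODAL pathway genes from the fit of 16 arrays, with embryoid bodies minus pluripotent cells by treatment on the left and treatment contrasts within a state on the right (filled points, adjusted p under 0.05). CRIPTO has differences of -3.99, -5.13 and -7.91 with KBTBD8 shRNA, control shRNA and no transduction, and in embryoid bodies it is higher by 1.35 with KBTBD8 shRNA than with control shRNA.

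Marker lists of several cell types differed between the embryoid bodies together with CRIPTO and FOXH1. The mean of the 10 pluripotency markers was 9.27 to 9.44 with KBTBD8 shRNA, 9.18 to 9.20 with control shRNA and 8.28 to 8.41 without transduction. In embryoid bodies 8 of the 10 were higher with control shRNA than without transduction and SOX2 was lower, and 2 of the 10, SOX2 and DNMT3B, were higher with KBTBD8 shRNA than with control shRNA. For control shRNA against no transduction, 24.3% of all probe sets were called higher there and 19.7% lower. For KBTBD8 shRNA against control shRNA these shares were 2.55% and 2.73%. The 8 neural plate markers averaged 8.29 to 8.40 with KBTBD8 shRNA, 7.56 to 7.61 with control shRNA and 8.83 to 8.97 without transduction. The untransduced embryoid bodies, lowest in CRIPTO and FOXH1, were highest in these markers. Those with KBTBD8 shRNA, highest in CRIPTO, lay above control shRNA, so the order of treatments was not the reverse of that of CRIPTO. The 7 endoderm and yolk sac markers averaged 5.41 to 5.64 with KBTBD8 shRNA, 6.79 to 6.87 with control shRNA and 5.05 to 5.11 without transduction, with 4 of 7 lower with KBTBD8 shRNA than with control shRNA and 5 of 7 higher with control shRNA than without transduction. The 5 trophoblast and amnion markers averaged 6.65 to 6.72, 6.53 to 6.59 and 5.01 to 5.33 in the same order of treatments. All 3 that were tested were higher with control shRNA than without transduction, of which 1 was on 18 arrays. With KBTBD8 shRNA against control shRNA, 1 of the 3 was higher and 1 lower, so only the averages followed the order of CRIPTO. The 6 mesenchyme markers averaged 5.98 to 6.06, 6.59 to 6.68 and 5.88 to 5.92, and 3 of the 4 tested were higher with control shRNA than without transduction, also on 18 arrays. In pluripotent cells the endoderm list averaged 5.53 to 5.56, 6.10 to 6.26 and 5.21 to 5.31 in that order of treatments. GDF3 was also highest with control shRNA there, whereas CER1 overlapped between control shRNA and KBTBD8 shRNA (-0.24, not called). The part of these markers in the differences of the NODAL pathway genes was not tested.

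**Figure D3:**
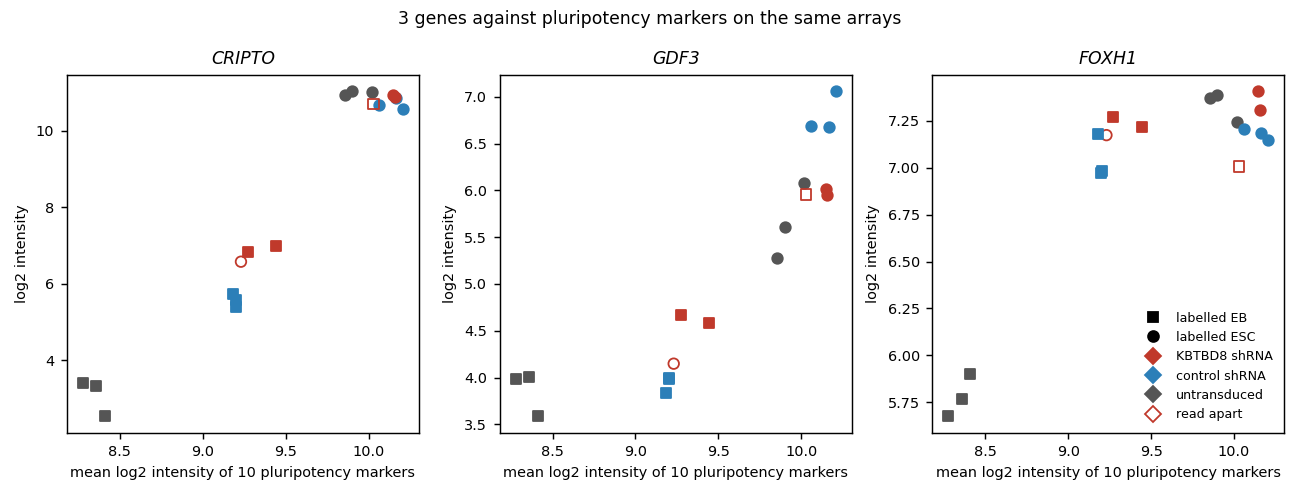
Log2 intensity of CRIPTO, GDF3 and FOXH1 (vertical) against the mean log2 intensity of 10 pluripotency markers (horizontal) on the same 18 arrays, with squares for arrays labelled embryoid body, circles for pluripotent cells and open symbols for the 2 arrays read apart. For CRIPTO and FOXH1 the untransduced embryoid bodies sit lowest on both axes, with markers at 8.28 to 8.41 and FOXH1 at 5.68 to 5.90.

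The rest of the pathway, taken from lists of known components, moved in both directions during differentiation. Of 10 SMADs and partners, 7 were higher and none lower in untransduced embryoid bodies, led by the signal transducers SMAD3 (1.10 ± 0.10) and SMAD2 (0.75 ± 0.09). With control shRNA 6 were higher and 1 lower, and with KBTBD8 shRNA 1 was higher, SMAD2 (0.32 ± 0.11). That call was lost in 3 of 4 cases when 1 KBTBD8 shRNA array was left out, namely replicate 1 or 3 of the pluripotent cells or replicate 3 of the embryoid bodies, and the value ranged from 0.17 to 0.47. The median log2 difference of the list was 0.16 with KBTBD8 shRNA, 0.27 with control shRNA and 0.37 without transduction. Of all probe sets, 17.6%, 23.2% and 25.5% were called higher in the same order of treatments.

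Of 17 inhibitors and feedback genes, 3 were higher and 7 lower with KBTBD8 shRNA, 3 and 6 with control shRNA, and 4 and 8 without transduction, with list medians of 0.02, -0.06 and -0.19. SKIL, a SMAD corepressor that is itself a target of the pathway, fell in each treatment, with differences of -2.17 ± 0.10 with KBTBD8 shRNA, -2.22 ± 0.08 with control shRNA and -1.76 ± 0.08 without transduction. SMAD7, an inhibitory SMAD and feedback target, differed by -0.35 ± 0.13, -0.95 ± 0.11 and -1.05 ± 0.11 in the same order. LEMD3, a nuclear envelope protein that binds SMADs, differed by -0.96 ± 0.16, -1.13 ± 0.13 and -1.22 ± 0.13, and PMEPA1, a membrane protein that sequesters SMADs, by -1.22 ± 0.14, -0.92 ± 0.11 and -0.96 ± 0.11, so these 3 genes were lower in every treatment. FST, which binds and neutralizes activins, went the other way and rose by 1.63 ± 0.18, 2.77 ± 0.14 and 1.44 ± 0.14 in the same order of treatments. The FST rise with KBTBD8 shRNA was smaller than with control shRNA, with an interaction term of -1.14 ± 0.23 (adjusted p = 0.0052, limma), where 5.75% of all probe sets were called lower. It was also called on 18 arrays (adjusted p = 0.042), but that fit includes the 2 arrays read apart and is no separate check.

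Of 9 genes on a receptor list, which also holds the chaperone HSPA5, 5 were higher and 1 lower with KBTBD8 shRNA, HSPA5 (0.65) among the higher. The counts were 3 and 1 with control shRNA, and 3 and 3 without transduction. List medians were 0.40, 0.09 and 0.19 with KBTBD8 shRNA, control shRNA and no transduction. Over all probe sets 17.6%, 23.2% and 25.5% were called higher and 20.2%, 24.2% and 25.7% lower in the same order, so several of these shares and of those below lie near the background. ACVR1B, the type I receptor most used by activin and NODAL, rose by 1.13 ± 0.11 with KBTBD8 shRNA and by 0.94 ± 0.09 with control shRNA. Without transduction it averaged 7.06 in embryoid bodies and 6.86 in pluripotent cells. The rise with control shRNA was called larger than the change without transduction, by 0.74, where 7.85% of all probe sets were called in that direction. TGFBR1, a type I receptor for TGF-beta, rose by 0.69 ± 0.11, 0.76 ± 0.09 and 0.92 ± 0.09 with KBTBD8 shRNA, control shRNA and no transduction. Of 7 other ligands and processing genes, 2 were higher and 2 lower with KBTBD8 shRNA, 2 and 4 with control shRNA, and 1 and 2 without transduction, with list medians of -0.12, -0.26 and -0.25. INHBE, an inhibin subunit gene, fell, with differences of -4.19 ± 0.29, -1.39 ± 0.24 and -2.87 ± 0.24 in the same order. In untransduced embryoid bodies it lay at percentiles 31.7 to 38.2, under the filter's percentile. With KBTBD8 shRNA and control shRNA it reached down to 39.5 and 39.8 there. GDF11, an activin-like ligand, rose by 0.90 ± 0.12, 0.67 ± 0.10 and 0.96 ± 0.10 in the same order of treatments. Of 11 primitive streak and mesendoderm targets, 3 were higher and none lower with KBTBD8 shRNA, 1 and 0 with control shRNA, and 1 and 2 without transduction, with list medians of 0.18, -0.12 and -0.10. Among them FGF8, a secreted growth factor of streak and neural boundaries, rose by 1.47 ± 0.14 with KBTBD8 shRNA and by 0.60 ± 0.11 without transduction. HHEX was called in each treatment, at 0.87 with KBTBD8 shRNA, 0.28 with control shRNA and -0.31 without transduction. SOX17 was called with KBTBD8 shRNA (0.40) and MIXL1 without transduction (-0.42). EOMES, GSC, TBXT and GATA6, which mark streak and mesendoderm, were not called during differentiation in any treatment. These lay at percentiles 35.4 to 49.1 of the arrays, near or under the filter's percentile, where a missing call says little. None of the list calls for differentiation with KBTBD8 shRNA was made on the 18 arrays as labelled.

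**Figure D4:**
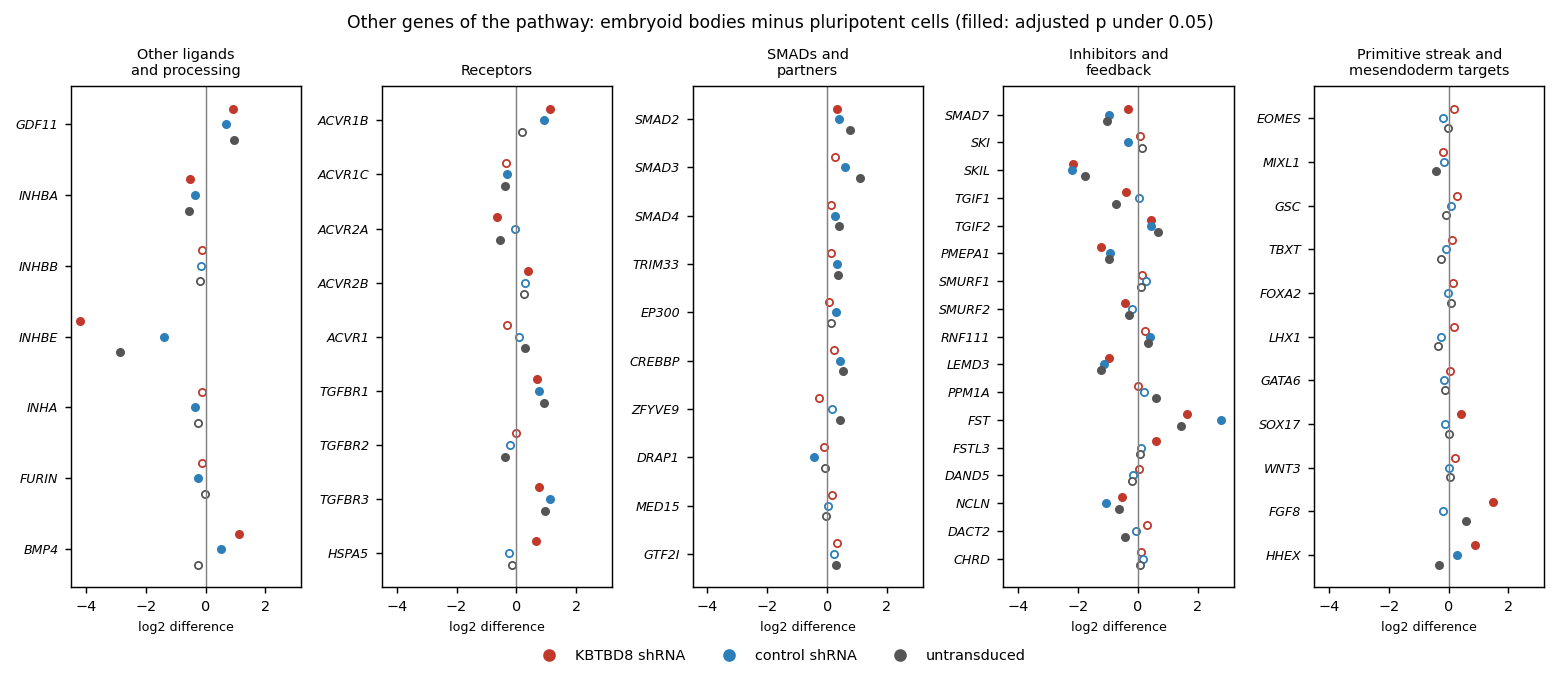
Log2 difference of embryoid bodies minus pluripotent cells for the other genes of the pathway, by list and treatment (filled points, adjusted p under 0.05). INHBE has differences of -4.19, -1.39 and -2.87 and FST of 1.63, 2.77 and 1.44 with KBTBD8 shRNA, control shRNA and no transduction. In untransduced embryoid bodies INHBE lies under the filter's percentile.

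The other components were also compared between KBTBD8 shRNA and control shRNA within a state. In embryoid bodies 2.55% of all probe sets were called higher. None of the 7 ligands and processing genes, 9 genes of the receptor list and 10 SMADs and partners was called there. Of 17 inhibitors 3 were higher and 1 lower, and of 11 streak targets 2 were higher. The 2 were FGF8 (1.30 ± 0.13, adjusted p = 8.1e-06, limma) and HHEX, a homeobox gene of anterior endoderm (0.59 ± 0.09, adjusted p = 7.4e-04). The inhibitors were SMAD7 (0.49 ± 0.12), the corepressors TGIF2 (0.39 ± 0.09) and SKIL (0.38 ± 0.09), and FST (-0.63 ± 0.16), where 2.73% of all probe sets were called lower. When 1 of the 5 arrays was left out, these calls were lost in 5 of 5 cases for SMAD7 and FST, 4 of 5 for TGIF2 (all but control shRNA replicate 2) and 3 of 5 for SKIL (either KBTBD8 shRNA array or control shRNA replicate 2), and in none for FGF8 and HHEX. In pluripotent cells 1 of 7 ligands and processing genes was higher and 1 lower, and 1 of 9 on the receptor list was lower, the chaperone HSPA5. Of 10 SMADs and partners 1 was higher, of 17 inhibitors 4 were higher and 2 lower, and of 11 streak targets 1 was lower. Over all probe sets, 5.29% were called lower in these cells. There INHBE was higher by 2.67 ± 0.27 (adjusted p = 1.9e-05), where 7.92% of all probe sets were, and BMP4, a ligand of the BMP branch, was lower by 0.62 ± 0.14 (adjusted p = 0.0079). BMP4 lay under the filter's percentile in both groups, at percentiles 25.8 to 28.6 with KBTBD8 shRNA and 35.0 to 38.5 with control shRNA. HSPA5, a chaperone that binds CRIPTO at the cell surface, was lower by 0.74 ± 0.13 (adjusted p = 0.0016), and NCLN, a membrane protein that antagonizes NODAL in zebrafish, by 0.59 ± 0.11 (adjusted p = 0.0021). The BMP4 and NCLN calls were lost without replicate 3 of the KBTBD8 shRNA cells (adjusted p = 0.12 and 0.055). Of all these, NCLN was called on 18 arrays (adjusted p = 0.014) and the others were not. That fit includes the arrays read apart, so it is no separate check.

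Control shRNA against no transduction moved more of them. In embryoid bodies 6 of 10 SMADs and partners were lower, against 19.7% of all probe sets, and none higher, with SMAD2 at -0.77 ± 0.09, SMAD3 at -0.56 ± 0.10 and ZFYVE9, the SMAD anchor SARA, at -0.88 ± 0.11. BMP4 was higher by 1.31 ± 0.12, from an untransduced level at percentiles 23.1 to 28.4, under the filter's percentile. HHEX was higher by 1.09 ± 0.08 and MIXL1, a homeobox gene of the streak, by 0.65 ± 0.13, whereas FGF8 was lower by 1.79 ± 0.11 (adjusted p = 1.1e-08, limma). The treatments thus ordered FGF8 differently from CRIPTO in embryoid bodies, with control shRNA lowest for FGF8 and no transduction lowest for CRIPTO. In pluripotent cells FGF8 was lower by 1.00 ± 0.11 and ZFYVE9 by 0.61 ± 0.11, and 4 of 10 SMADs and partners were lower, where 12.2% of all probe sets were called lower.

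The genes whose pattern over all 18 arrays was most like a member were ranked by Pearson's r, which is given as a description, since the arrays share their 6 groups. For CRIPTO they were CALB1 (0.994), CGNL1, PHC1 and POLR3G (0.990). For NODAL the list was led by GPX3 (0.968), for GDF3 by BRINP1 (0.974), for LEFTY1 by VASH2 (0.907), for LEFTY2 by CFAP298 (0.926) and for CER1 by HIRA (0.929). FOXH1 was most like PDLIM1 (0.979), CDH1 (0.979), NMRK2, NMNAT2 and EPCAM (0.966). CDH1 and EPCAM encode epithelial adhesion proteins that are high in pluripotent cells. Between members, r over the 18 arrays was highest for CRIPTO with GDF3 (0.903) and lowest for LEFTY2 with FOXH1 (0.280). No member was among the 5 most like another.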

How the data were processed

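RNA of H1 cells was hybridized to 18 arrays, whose number limits the precision. Deposited values are on the log2 scale. The submitters' processing notes name GCRMA as the authors' method, and its version is not given in the sources used here. The log base was taken from the method and the range of values, and whether all arrays were normalized together is not stated. Raw signals were not analysed here. Of 33297 probe sets, 19460 carry 1 gene symbol, 1754 several and 12083 none, and symbols were updated through RefSeq (GRCh38.p14).

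Probe sets with at least 1 symbol that exceeded the 40th percentile in 3 or more of the 18 arrays (16334) were fitted with limma 3.58.1 in R 4.3.3, with a mean for each of 6 groups, on 16 arrays (10 residual degrees of freedom) without KBTBD8 shRNA replicate 2 of both states. Benjamini-Hochberg adjustment ran within each of 9 comparisons. The fit was tested on simulated data. The 7 genes, the lists and the arrays to read apart were chosen with earlier results of these data known. Every member is named in every comparison, with at most 4 called genes of each list by size and the 5 genes most like each member. Alternatives were all 18 arrays (12 residual degrees of freedom), a replicate block, other filters, scalings and sets of probe sets, a variance trend, fits of the compared groups alone, and leaving out each array. Same-numbered arrays deviated from their group means with correlations of -0.39 to 0.38, 4 of 18 of them over 0.1. These were all the pairs of 2 comparisons. They were 0.32 and 0.32 for differentiation with KBTBD8 shRNA, equal because both groups hold 2 arrays. They were 0.38 and 0.35 for KBTBD8 shRNA against control shRNA in pluripotent cells. A pairing there is thus not excluded, and numbers were not taken to pair samples in the main fit.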

Additional observations from a re-analysis of the deposited data

Results flagged for a closer look

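For 5 values the change during differentiation differed between treatments by the test of the difference itself (limma, adjusted p under 0.05, fit of 16 arrays). CRIPTO fell less with KBTBD8 shRNA than with control shRNA, by 1.14 ± 0.27 on the log2 scale (adjusted p = 0.015). GDF3 fell less with KBTBD8 shRNA than with control shRNA, by 1.52 ± 0.26 (adjusted p = 0.002). CRIPTO fell less with control shRNA than without transduction, by 2.78 ± 0.24 (adjusted p = 1e-06). GDF3 fell more with control shRNA than without transduction, with a difference of -1.08 ± 0.24 (adjusted p = 0.0052). CRIPTO in untransduced embryoid bodies and GDF3 in all embryoid bodies lay under the 40th percentile of their arrays. FOXH1, which fell without transduction, differed by 1.42 ± 0.12 with control shRNA (adjusted p = 6.6e-07). On all 18 arrays as labelled, GDF3 with KBTBD8 shRNA and FOXH1 were called and the other 3 values were not. For GDF3 with KBTBD8 shRNA that fit includes the arrays read apart, so it is no separate check.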

How the results depend on the processing

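Each of the 63 differences of the 7 genes was recomputed under 10 alternatives and without each array. With all 18 arrays as labelled, 38 kept their direction and call, 17 lost the call and 8 changed sign without being called. The number of genes called became 0 for differentiation with KBTBD8 shRNA, 0 and 0 for KBTBD8 shRNA against control shRNA in both states, and 1 for each of the other 2 contrasts within a state and 1 for both differences between falls. The sign changes there were in pluripotent cells, for KBTBD8 shRNA against control shRNA, CRIPTO (-1.23), NODAL (-0.34), LEFTY1 (-0.15) and LEFTY2 (-0.18), in embryoid bodies NODAL (0.17) and CER1 (0.16), and in the difference of falls NODAL (0.51) and LEFTY1 (0.0014).

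Under the other alternatives 57 to 62 of the 63 differences kept direction and call. A stricter filter at the 50th percentile tested 5 of the 7 genes, changed no call among them, and left 1 gene called for control shRNA against no transduction in pluripotent cells, where subtracting array medians gave 4. For KBTBD8 shRNA against control shRNA in embryoid bodies, 1 gene was called in place of 2 under the replicate block, with no filter, after quantile normalization, after subtracting array medians and over all probe sets, because GDF3 lost its call. With the replicate block no other member changed its call (GDF3 0.62). The cause was not tested. For control shRNA against no transduction in embryoid bodies, NODAL (-0.10) and GDF3 (-0.012) changed sign after quantile normalization, and NODAL (-0.12) and GDF3 (-0.10) after subtracting array medians. That subtraction moved the median of all genes by -0.17 there and by -0.10 in pluripotent cells. Quantile normalization gave 47.3% of calls as higher in pluripotent cells, against 57.4%.

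Leaving out each array gave 0 to 1 called genes for KBTBD8 shRNA against control shRNA in pluripotent cells, 1 in every case in embryoid bodies, and 1 to 2 for the difference of their falls. Uncalled values that changed sign were, for KBTBD8 shRNA against control shRNA, NODAL (-0.17 to 0.39) and LEFTY1 (-0.062 to 0.11) in pluripotent cells, CER1 (-0.37 to 0.16) in embryoid bodies, and LEFTY2 (-0.027 to 0.28), CER1 (-0.13 to 0.40) and FOXH1 (-0.031 to 0.090) in the difference of falls. For control shRNA against no transduction they were LEFTY1 (-0.12 to 0.17) in pluripotent cells, NODAL (-0.062 to 0.26) and GDF3 (-0.061 to 0.15) in embryoid bodies, and NODAL (-0.25 to 0.074) and LEFTY2 (-0.23 to 0.081) in the difference of falls. A group of KBTBD8 shRNA left with 1 array was assumed to vary like the other groups.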
